A study of Mus musculus with 2 samples.

Results

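Genes of glycolysis and of the hypoxia response were examined in mouse embryonic stem cells that carry a Gbx2 vector. The members were 42 symbols drawn up by pathway knowledge, with earlier results of these data known. They cover the enzymes from hexokinase to lactate dehydrogenase, their regulators and transporters, the hypoxia-inducible factor (HIF) with its oxygen sensors, and known hypoxia-inducible genes. A row was found for 41 of the 42 members among 14500 gene symbols. The exception was Pkm2, and the table lists a row under Pkm, the current symbol of that pyruvate kinase gene in RefSeq, which is reported beside the members. The cells were 46C embryonic stem cells, a line with green fluorescent protein in the Sox1 locus, at passages 21 to 24, grown on gelatin in serum medium with LIF. The PB-Gbx2 library came from cells transfected to overexpress the homeobox factor Gbx2, and the PB library from cells transfected with the empty vector. There was 1 library per vector and no replicate, so no test between conditions was possible and every difference below lacks a replicate error.

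The titles of the libraries and their source names contradict each other in the labels: the library titled PB-Gbx2 has the source name of the empty-vector control, and the library titled PB that of Gbx2-overexpressing cells. Groups follow the titles, which match the column names of the table. Gbx2 had a normalized level of 1178 in the PB-Gbx2 library and 345 in the PB library, a direction that goes with the titles. Were the source names the correct ones, all directions reported for these genes would be opposite. Of 8 embryonic stem cell markers, all were listed, with a summed level of 128241 in the PB-Gbx2 library and 98850 in the PB library. Pou5f1, which defines pluripotent cells, had 10597 in PB-Gbx2 and 9446 in PB, while Nanog, of the same network, had 19872 in PB-Gbx2 and 8918 in PB. Of 10 fibroblast markers, 4 were listed (Col1a1, Col1a2, Thy1 and Pdgfrb), with summed levels of 1032 in PB-Gbx2 and 1633 in PB. The listed markers of primitive endoderm (4 of 7) summed to 294 in PB-Gbx2 and 165 in PB, those of neural ectoderm (3 of 5) to 1545 in PB-Gbx2 and 1663 in PB, those of mesoderm (3 of 5) to 465 in PB-Gbx2 and 158 in PB, and those of trophectoderm (2 of 5) to 229 in PB-Gbx2 and 575 in PB. Of the 3 neural ectoderm markers, Sox1 (56 in PB-Gbx2, 10 in PB) and Nes (733 in PB-Gbx2, 405 in PB) were higher in PB-Gbx2. Tubb3 (756 in PB-Gbx2, 1248 in PB) was lower and outweighed them in the sum. The part of the markers of all these cell types in the differences below was not tested. In such bulk samples, fewer cells of a type and less RNA per cell cannot be told apart.

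Glycolysis splits glucose into pyruvate in the cytosol and yields ATP without oxygen, and lactate dehydrogenase then turns pyruvate into lactate. Pluripotent stem cells are known for a high glycolytic rate. HIF is a pair of proteins, an oxygen-regulated alpha subunit and the stable partner Arnt. With oxygen present, prolyl hydroxylases of the Egln family mark the alpha subunit, and the ubiquitin ligase component Vhl sends it to destruction. With little oxygen it persists, binds hypoxia response elements with the core ACGTG or GCGTG, and activates most glycolytic genes together with genes for mitophagy, blood vessel growth and acid balance. Several enzymes have one paralog that HIF induces and another that it does not.

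Most members had a lower level in the PB-Gbx2 library than in the PB library. The ratio of PB-Gbx2 over PB was below 1 for 29 of 41 members (70.7%), above 1 for 9 and exactly 1 for 3. Among all 14500 genes, 48.9% were below 1 and 49.2% above. The members were chosen with earlier results of these data known, so the shares here and below are a description only. The median log2 ratio of the members, taken on log2(level + 1), was -0.31, against 0.00 over all genes. A ratio of at least 2-fold was reached downward by 5 members (12.2%), against 5.26% of all genes, and upward by 1, against 5.14% of all genes. The mitophagy receptor Bnip3, the aldolase Aldoc, carbonic anhydrase Car9, triose phosphate isomerase Tpi1 and phosphoglycerate kinase Pgk1 were the 5 lower in PB-Gbx2, and the adenylate kinase Ak4 was the single member at least 2-fold higher.

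Low levels scatter widely in this table, so the members were also read by level. Of the 30 members with a level of 1000 or more in either library, 4 (13.3%) were at least 2-fold lower in PB-Gbx2, against 0.893% of the 4253 genes at that level, and 1 was at least 2-fold higher, against 1.08%. At least 1.5-fold lower were 14 of the 41 members, against 12.2% of all genes, and 2 were at least 1.5-fold higher, against 11.6%. In the authors' deposited table, Ak4 has an adjusted p of 8.33e-06 and Bnip3 one of 2.24e-05, and these are the 2 members under 0.05, against 0.234% of all 14501 rows. With 1 library per vector, these p-values of the authors carry no replicate information.

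**Figure D1:**
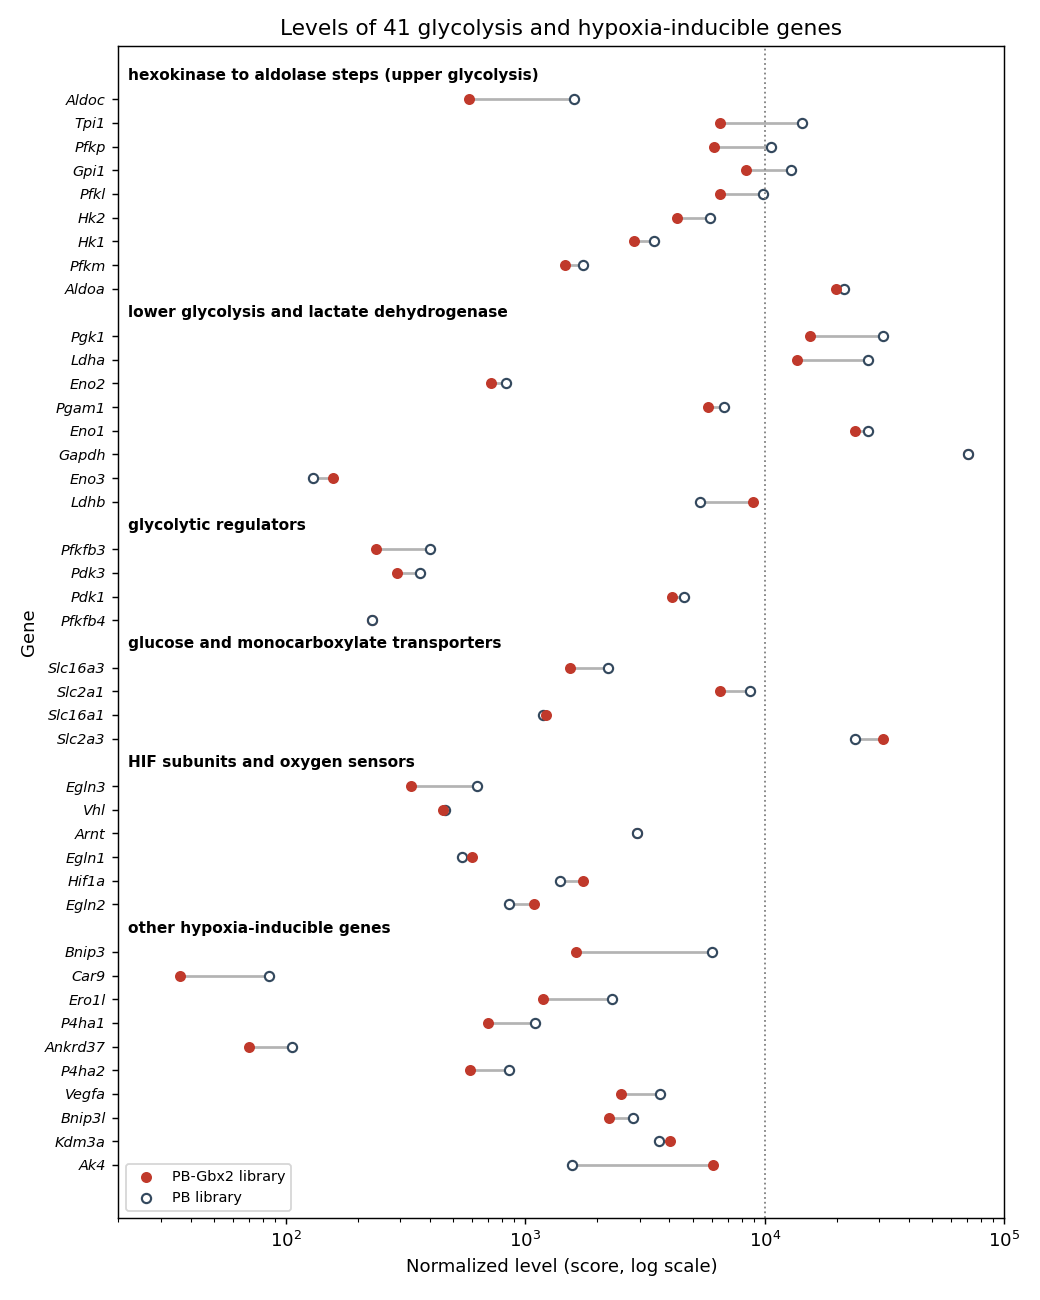
Normalized level (score, log axis) of each of the 41 members in the PB-Gbx2 library (filled red) and the PB library (open blue), grouped by role, with a dotted line at 10000, above which the steps of the scale are coarse. All 9 genes of the hexokinase to aldolase group lie to the left in PB-Gbx2, Ak4 lies far to the right in PB-Gbx2 (6096 against 1564), and for Gapdh, Arnt and Pfkfb4 both points coincide.

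Upstream sequence was read for the members, because HIF acts through short elements near the start sites of its targets. RefSeq promoter windows of build GRCm38.p6 were matched for 39 of 41 members, Ero1l through its current symbol Ero1a. The 250 bases before the most upstream start of each gene were searched for ACGTG and GCGTG on both strands. A CACGTG palindrome counts once on each strand. ACGTG was present in 20 of 39 members (51.3%), in 21.8% of the 10404 windows of genes listed in the table and in 16.5% of all 27025 windows. Either core was present in 32 members (82.1%), in 57.1% of the listed genes and in 38.6% of all windows. Median GC content was 60.4% for members and 60.0% for listed genes. By direction, 16 of 28 members lower in PB-Gbx2 held ACGTG, and 4 of 11 members that were higher or equal did. With either core the order was the other way, with 21 of 28 members lower in PB-Gbx2 (75.0%) and all 11 that were higher or equal. The windows of Bnip3, Aldoc and Pgk1 (lower in PB-Gbx2) and of Ak4 (higher) are shown because these are the members with the largest differences at levels of 1000 or more whose windows hold a core, which is in capitals. They read 5′ to 3′ on the strand of the gene, which is chr7:138909507-138909756 (minus) for Bnip3, chr4:101419039-101419288 (plus) for Ak4, chr11:78322823-78323072 (plus) for Aldoc and chrX:106186850-106187099 (plus) for Pgk1.
Bnip3: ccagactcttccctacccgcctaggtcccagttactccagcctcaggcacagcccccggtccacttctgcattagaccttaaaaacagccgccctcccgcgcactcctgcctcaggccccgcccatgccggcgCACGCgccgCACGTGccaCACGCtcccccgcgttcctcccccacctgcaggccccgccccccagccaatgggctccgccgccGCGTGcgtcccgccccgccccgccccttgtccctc
Ak4: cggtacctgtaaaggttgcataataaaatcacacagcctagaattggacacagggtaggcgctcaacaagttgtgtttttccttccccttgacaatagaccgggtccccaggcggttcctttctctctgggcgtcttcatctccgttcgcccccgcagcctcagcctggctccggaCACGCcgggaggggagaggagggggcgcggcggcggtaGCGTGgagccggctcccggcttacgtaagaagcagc
Aldoc: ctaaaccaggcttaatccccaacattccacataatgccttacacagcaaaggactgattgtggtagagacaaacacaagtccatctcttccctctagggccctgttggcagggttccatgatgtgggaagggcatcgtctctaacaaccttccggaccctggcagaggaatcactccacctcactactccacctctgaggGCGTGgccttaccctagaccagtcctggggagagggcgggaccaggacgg
Pgk1: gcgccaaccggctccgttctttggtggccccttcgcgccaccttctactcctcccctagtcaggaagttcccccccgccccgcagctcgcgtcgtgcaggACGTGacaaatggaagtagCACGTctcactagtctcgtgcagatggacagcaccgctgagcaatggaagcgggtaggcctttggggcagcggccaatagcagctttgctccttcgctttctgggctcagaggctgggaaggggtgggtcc

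Bnip3 held 5 core matches, 4 of them between positions -117 and -95 from the start, where 2 form a palindrome. Ak4 and Pgk1 held 2 each and Aldoc 1. Tpi1, also at least 2-fold lower in PB-Gbx2, had no match in its window, nor had Gpi1, Hk1, Aldoa, Eno2, Vegfa or Vhl. Ldha had 5 matches, all of ACGTG. These counts describe letters in a window and say nothing about binding in these cells.

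The steps from glucose to triose phosphates were lower in PB-Gbx2 throughout. All 9 genes of this group were below their PB level, 2 of them at least 2-fold, with a median log2 ratio of -0.60. Aldoc, the aldolase typical of brain, had a level of 583 in PB-Gbx2 and 1590 in PB, 2.73-fold lower in PB-Gbx2. That was the lowest ratio among the 725 genes of similar mean level. Tpi1, which interconverts the triose phosphates, stood at 6516 in PB-Gbx2 and 14256 in PB (2.19-fold lower). Its ratio was smaller than that of all but a few genes of similar level (percentile 0.345).

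The phosphofructokinases, which catalyse the committed step, differed by subunit. Pfkp, the platelet form, had levels of 6112 in PB-Gbx2 and 10611 in PB (1.74-fold lower). Pfkl, the liver form, had 6506 in PB-Gbx2 and 9853 in PB (1.51-fold lower). The muscle form Pfkm had 1460 in PB-Gbx2 and 1734 in PB, a difference of 1.19-fold. Gpi1, which converts glucose-6-phosphate to fructose-6-phosphate, had 8336 in PB-Gbx2 and 12926 in PB (1.55-fold lower). At the entry step the ratios were closer to 1: the hexokinase Hk2 had 4302 in PB-Gbx2 and 5926 in PB, and Hk1 had 2848 in PB-Gbx2 and 3449 in PB. Aldoa, the main aldolase here, differed least of the group, with 19872 in PB-Gbx2 and 21396 in PB.

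From glyceraldehyde-3-phosphate to lactate the picture was uneven, with 5 of 8 genes lower in PB-Gbx2, 2 higher and 1 equal, and a median log2 ratio of -0.19. Pgk1, which makes the first ATP of the pathway, had 15394 in PB-Gbx2 and 31052 in PB, 2.02-fold lower. It ranked 95th of all genes in the PB-Gbx2 library and 25th in the PB library. Ldha, the muscle-type lactate dehydrogenase subunit, had 13657 in PB-Gbx2 and 26878 in PB (1.97-fold lower), which is rank 113 in PB-Gbx2 and rank 33 in PB. Ldhb, the heart-type subunit, went the other way, with 8918 in PB-Gbx2 and 5348 in PB (1.67-fold higher). It was the sole enzyme among the members of the glycolytic groups at least 1.5-fold higher in PB-Gbx2, at percentile 97.4 among genes of similar level.

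The other members of the lower part differed by less than 1.5-fold. The phosphoglycerate mutase Pgam1 had 5810 in PB-Gbx2 and 6740 in PB. Among the enolases, the ubiquitous Eno1 had 23822 in PB-Gbx2 and 26878 in PB, the neuronal Eno2 had 716 in PB-Gbx2 and 831 in PB, and the muscle Eno3 had 158 in PB-Gbx2 and 130 in PB. Outside the members, the pyruvate kinase row Pkm had 45165 in PB-Gbx2 and 70328 in PB. Its ratio of 1.56-fold lower is a single step of the scale, the step of 1.56-fold that separates the 10 genes at the top value from the next 10.

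Coarse steps touch 9 members that reached 10000 in either library: Gpi1, Pfkp, Aldoa, Tpi1, Gapdh, Pgk1, Eno1, Ldha and Slc2a3. Both libraries hold one and the same set of values once sorted, and 10 genes of each sit at the top value of 70328. Gapdh, which oxidises glyceraldehyde-3-phosphate, is among these in both libraries, so the scale cannot show a difference for it. Further down, values come in blocks of 10 genes separated by steps of 1.04-fold to 1.15-fold between ranks 21 and 120. The Eno1 ratio of 1.13-fold is equal to the step between its blocks, and the levels of Aldoa (1.08-fold lower in PB-Gbx2) lie in neighbouring blocks, while those of Pgk1, Tpi1 and Ldha span several blocks. Ldha and Eno1 share the level 26878 in PB. Gapdh, Tpi1, Pgk1, Eno1, Ldha, Aldoa and Pgam1 have processed pseudogene copies, so the assignment of their reads is uncertain.

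**Figure D2:**
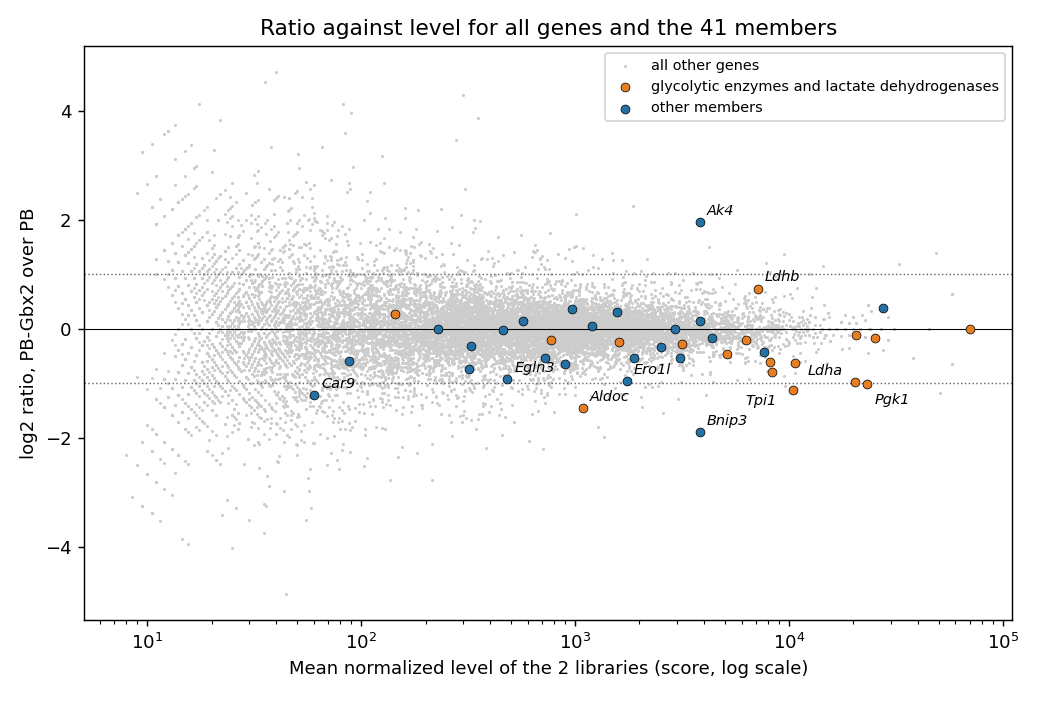
Log2 ratio of PB-Gbx2 over PB (vertical axis) against the mean normalized level of both libraries (log axis) for all genes (grey), glycolytic enzymes and lactate dehydrogenases (orange) and the other members (blue), with dotted lines at 2-fold. Bnip3 (-1.89) and Ak4 (1.96) lie outside the grey band at their level, while Car9 (-1.22) lies where grey points scatter as widely.

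The regulators of glycolysis stood between 228 and 4610 in level, and none was higher in PB-Gbx2. Pfkfb3, which makes fructose-2,6-bisphosphate and so activates phosphofructokinase, had 238 in PB-Gbx2 and 399 in PB (1.68-fold lower). Its sister Pfkfb4 had the level 228 in both libraries. Pdk1, a kinase that shuts off pyruvate dehydrogenase and is a known HIF target, had 4085 in PB-Gbx2 and 4610 in PB. Pdk3, of the same family, had 291 in PB-Gbx2 and 362 in PB. Of these 4, Pfkfb3 alone passed 1.5-fold, at percentile 5.59 among genes of similar level.

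Transporters differed in direction by gene, and none of the 4 reached 1.5-fold. The glucose carrier Slc2a1 (GLUT1) had 6520 in PB-Gbx2 and 8695 in PB. Slc2a3 (GLUT3), a high-affinity glucose carrier, had 31076 in PB-Gbx2 and 23835 in PB (1.30-fold higher), which is rank 21 in PB-Gbx2 and rank 41 in PB. The lactate exporter Slc16a3 (MCT4), induced by hypoxia, had 1540 in PB-Gbx2 and 2222 in PB (1.44-fold lower). Slc16a1 (MCT1), which carries lactate in either direction, had 1224 in PB-Gbx2 and 1180 in PB.

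The HIF machinery itself was near its PB level, apart from Egln3. Hif1a, the oxygen-regulated subunit, had 1736 in PB-Gbx2 and 1400 in PB (1.24-fold higher), Arnt had 2926 in both, and Vhl had 454 in PB-Gbx2 and 463 in PB. Among the prolyl hydroxylases, the constitutive Egln2 had 1091 in PB-Gbx2 and 852 in PB, and Egln1 had 600 in PB-Gbx2 and 546 in PB. Egln3, the hydroxylase most strongly induced by HIF, had 333 in PB-Gbx2 and 630 in PB (1.89-fold lower). The group had a median log2 ratio of 0.07, with 3 members above, 2 below and 1 at 0. HIF is regulated mainly at the protein level, which these RNA values do not measure.

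Of the 10 further hypoxia-inducible members, 8 were lower in PB-Gbx2 and 2 higher, with a median log2 ratio of -0.57. Bnip3, which marks mitochondria for removal, had 1621 in PB-Gbx2 and 6018 in PB, 3.71-fold lower and the lowest ratio among the 725 genes of similar level. Its relative Bnip3l (Nix) had 2243 in PB-Gbx2 and 2826 in PB. Ero1l, an oxidase that forms disulfide bonds in the endoplasmic reticulum, had 1185 in PB-Gbx2 and 2304 in PB (1.94-fold lower). The collagen prolyl hydroxylase subunits P4ha1 (697 in PB-Gbx2, 1095 in PB) and P4ha2 (589 in PB-Gbx2, 855 in PB) were 1.57-fold and 1.45-fold lower in PB-Gbx2. The angiogenic factor Vegfa had 2512 in PB-Gbx2 and 3652 in PB (1.45-fold lower).

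A pair of classical hypoxia markers had low levels here. Car9, a membrane carbonic anhydrase, had 36 in PB-Gbx2 and 85 in PB, and its ratio of 2.36-fold lower was not extreme among genes with comparable levels (percentile 6.83). Ankrd37 had 70 in PB-Gbx2 and 106 in PB, at percentile 17.0. The histone demethylase Kdm3a was close to even, with 4031 in PB-Gbx2 and 3633 in PB.

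Ak4 departed from this group. This adenylate kinase of the mitochondrial matrix is a known HIF target, and its level was 6096 in PB-Gbx2 and 1564 in PB, 3.90-fold higher. That was the highest ratio among the 725 genes of similar level. Ak4 and Bnip3 thus had almost the same mean level in this table and ratios of opposite direction.

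Within families, the gene with the better known hypoxic induction or the narrower tissue range was set beside its partner in 15 pairs, and the difference of their log2 ratios was taken, which needs no gene length. It was below 0 in 13 pairs, a count that depends on the order set by hand within each pair and has no baseline. Some second genes, such as Bnip3l and P4ha1, are themselves among the hypoxia-inducible members. Ldha against Ldhb gave the widest gap (-1.71), followed by Bnip3 against Bnip3l (-1.56), Aldoc against Aldoa (-1.34) and Egln3 against Egln2 (-1.27). Slc2a1 against Slc2a3 gave -0.80, Slc16a3 against Slc16a1 gave -0.58 and Hk2 against Hk1 gave -0.19. Pfkfb4 against Pfkfb3 (0.74) and P4ha2 against P4ha1 (0.11) ran the other way. Pairs that share a gene are not independent of each other.

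**Figure D3:**
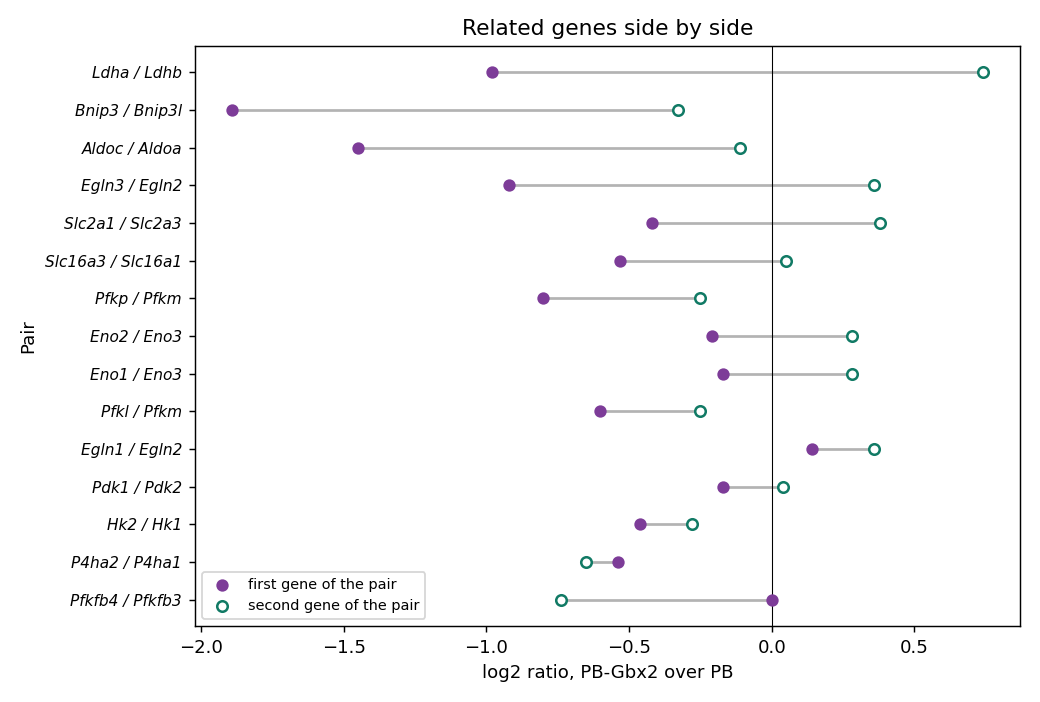
Log2 ratio of PB-Gbx2 over PB for both genes of each of 15 pairs, first gene filled and second gene open, ordered by their difference. In the Ldha and Ldhb pair the points lie on opposite sides of 0 (-0.98 and 0.74), and in the lowest 2 rows the second gene lies to the left.

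Levels per kilobase of the longest protein-coding GENCODE transcript give the make-up of each family. Ldha made up 52.4% of lactate dehydrogenase level per kilobase in PB-Gbx2 and 78.3% in PB, with Ldhb as the rest. Egln3 made up 15.4% of the Egln family in PB-Gbx2 and 29.8% in PB, and Egln2 63.9% in PB-Gbx2 and 51.0% in PB. For glucose carriers, Slc2a3 held 79.7% of the pair in PB-Gbx2 and 69.3% in PB. Aldoa held 98.4% of aldolase level per kilobase in PB-Gbx2 and 96.0% in PB, so Aldoc was a minor part of the family in both libraries. Eno1 likewise held 97.1% of the enolases in PB-Gbx2 and 97.2% in PB. The summed phosphofructokinase level per kilobase was 3730 in PB-Gbx2 and 5800 in PB, and that of the hexokinases 1450 in PB-Gbx2 and 1880 in PB.

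Further genes of these pathways were taken from lists that did not include the members. Of 40 further HIF targets, 37 were listed: 25 were lower in PB-Gbx2 and 11 higher, with a median log2 ratio of -0.20, and 6 were at least 2-fold lower (16.2%, against 5.26% of all genes). By the naming rule these include the lysyl oxidase relative Loxl2 (210 in PB-Gbx2, 548 in PB), the circadian repressor Bhlhe40 (148 in PB-Gbx2, 361 in PB) and the liprin Ppfia4 (861 in PB-Gbx2, 2028 in PB). The phosphoglucomutase Pgm2 (804 in PB-Gbx2, 1856 in PB) and the hormones Stc1 and Adm complete the 6 and were named after their values were seen. Stc1 and Adm stood at levels of 29 or less. In the other direction, 2 of the 37 were at least 2-fold higher, against 5.14% of all genes. At 1.5-fold, 10 were lower and 4 higher, against 12.2% and 11.6% of all genes. Of the 2 at least 2-fold higher, 1 is not reported here. The growth factor Pgf, also named after its value was seen, had 40 in PB-Gbx2 and 14 in PB.

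Further parts of the HIF pathway had a median log2 ratio of 0.03 over 10 genes, and none reached 2-fold. Hif3a, an alpha subunit that can restrain HIF and is itself induced by hypoxia, had 424 in PB-Gbx2 and 802 in PB (1.89-fold lower). Arnt2 had 148 in PB-Gbx2 and 220 in PB, the coactivator Crebbp had 682 in PB-Gbx2 and 446 in PB, and Tceb2 (elongin B), of the Vhl ligase, had 2262 in PB-Gbx2 and 1878 in PB. Epas1, the other main alpha subunit, had 1530 in PB-Gbx2 and 1502 in PB.

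Isoenzymes outside the members and genes of gluconeogenesis showed no common direction, with 11 of 21 listed genes higher, 10 lower and a median log2 ratio of 0.04. The fructose bisphosphatases, which run the phosphofructokinase step backwards, were both higher in PB-Gbx2: Fbp2 had 474 in PB-Gbx2 and 110 in PB (4.31-fold), and Fbp1 had 114 in PB-Gbx2 and 38 in PB (3-fold). Pgam2, the muscle mutase, had 225 in PB-Gbx2 and 133 in PB, and the mitochondrial PEP carboxykinase Pck2 had 992 in PB-Gbx2 and 1630 in PB. At levels of 69 or less, the testis-type Ldhc (12 in PB-Gbx2, 69 in PB) also passed 2-fold downward and the liver pyruvate kinase Pklr (37 in PB-Gbx2, 18 in PB) upward. They were named after their values were seen.

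The neighbouring pathways differed little. The pentose phosphate list had a median log2 ratio of -0.11 over 9 genes with none at 2-fold. Its named genes were the epimerase Rpe (1715 in PB-Gbx2, 1004 in PB), the entry enzyme G6pdx (964 in PB-Gbx2, 1208 in PB), Pgd (2666 in PB-Gbx2, 3265 in PB) and the phosphoribosyl pyrophosphate synthetase Prps2 (1343 in PB-Gbx2, 1593 in PB). Pyruvate dehydrogenase and citric acid cycle genes had a median of 0.05 over 27 genes, with 14 higher, 13 lower and none at 2-fold. The pyruvate carrier subunit Mpc1 (104 in PB-Gbx2, 192 in PB), the phosphatase Pdp1 (168 in PB-Gbx2, 246 in PB) and the dehydrogenase subunit Pdhb (2392 in PB-Gbx2, 3240 in PB) had the lowest ratios there. The succinyl-CoA ligase subunit Sucla2 (1736 in PB-Gbx2, 1452 in PB) had the highest.

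**Figure D4:**
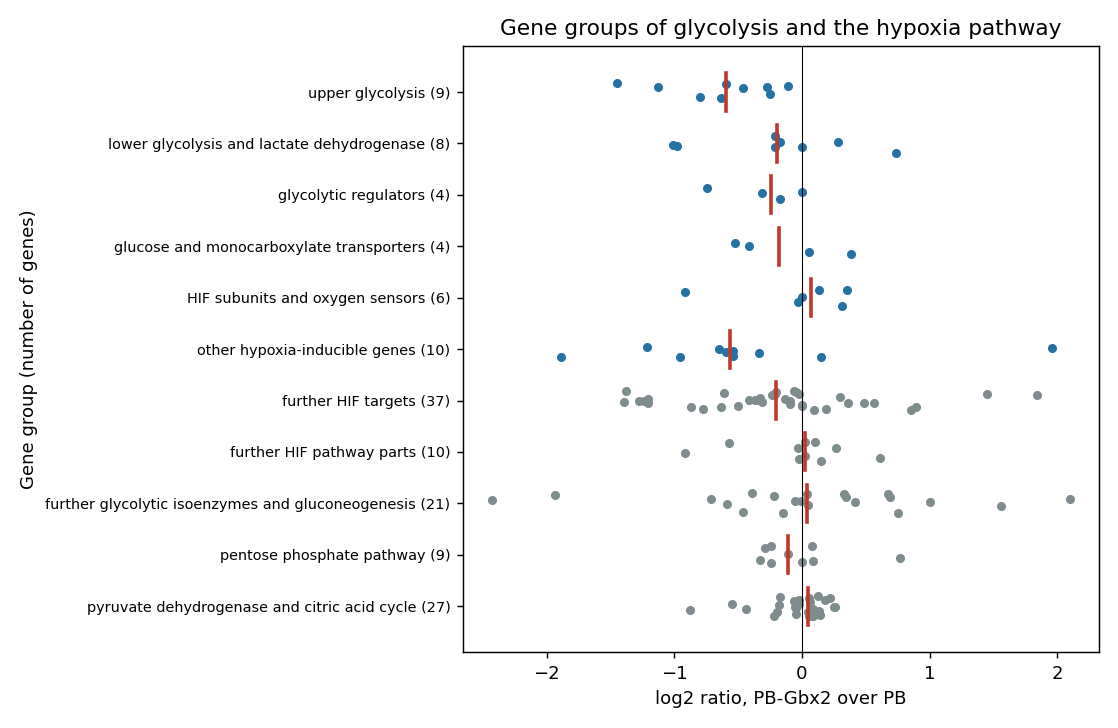
Log2 ratio of PB-Gbx2 over PB for every listed gene (points) of the 6 member groups (blue) and the 5 further lists (grey), with the group median as a red bar. Medians of the upper glycolysis group (-0.60) and of the other hypoxia-inducible genes (-0.57) lie left of 0, and that of pyruvate dehydrogenase and the citric acid cycle (0.05) lies near it.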

How the data were processed

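Total RNA was extracted with Trizol and libraries were prepared with the TruSeq RNA chemistry, per the labels' protocols. STAR and the build mm9 are named in the submitters' processing notes; the counting tool, strand setting and annotation were not given in the sources used here. In the authors' deposited table, each gene has 1 whole-number level per library, treated as a normalized score and not as a read count, because the sorted values of both libraries are equal in all 14501 rows, as after quantile normalization. Depth is therefore unknown, and no counting interval or detection floor can be given. The deposited table also holds the authors' ratio and its log2, both PB over PB-Gbx2 per the file headers and values, and their p-value and adjusted p-value.

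A symbol found on 2 rows was summed. Log2 ratios were taken as PB-Gbx2 over PB on log2(level + 1), which understates changes of low genes; folds in the text are ratios of deposited levels. Genes were split by mean level into 20 groups of 725, and a percentile is the share of genes in the same group with a smaller ratio, ties and the gene itself counted by 0.5. Lengths and GC came from GENCODE M21 (97.7% of genes), promoters from RefSeq GRCm38.p6 by symbol, with no coordinates taken across builds. All members are named; of each further list, the 4 genes with the largest ratio at a level of 100 or more, except for some that are not reported here. The members and lists were chosen with earlier results of these data known. The ratio code was run on simulated levels with less scatter than lies between these libraries. That run checks the code and not the differences reported here. Python 3.11.15, numpy 2.4.6, pandas 2.3.3 and matplotlib 3.10.9 were used.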

Additional observations from a re-analysis of the deposited data

How the results depend on the processing

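The count of members at least 2-fold lower in PB-Gbx2 was 3 without genes at 10000 or more, where Tpi1 and Pgk1 leave the count, and 14 with a 1.5-fold threshold, which raised the count of members higher in PB-Gbx2 to 2. Of 471 values recomputed under other pseudocounts (0.1 and 5), minimum levels (100 and 1000), removal of genes at 10000 or more, rescaling, removal of GC and length trends, a 1.5-fold threshold or the addition of Pkm (chosen after seeing the data), these 3 moved by more than 1.5-fold, and no member past 2-fold turned direction. The member median stayed between -0.32 and -0.30. A few group medians changed sign: lower glycolysis was at 0.03 without genes at 10000 or more, the further isoenzymes at -0.01 with a minimum level of 100, and the further HIF pathway parts at -0.01 with GC and length trends removed. The rescaling shifted nothing, since the libraries share one distribution, and so says nothing about stability. No paired analysis was possible because there was a single library for each vector, which also means that leaving out a library was not an option. The spread of ratios depends on level: the SD of the log2 ratio over genes was 1.35 in the lowest of the 20 level groups and 0.33 in the highest. That spread joins differences between the vectors with noise, so it does not measure precision.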

Other observations

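Gene families around the members with the largest differences were looked at after those values were seen, so they are described without a test. Among adenylate and related nucleotide kinases, 8 of 10 genes were listed and Ak4 was the sole one past 2-fold. Ak7 had 254 in PB-Gbx2 and 150 in PB and Ak3, the other matrix enzyme, had 388 in PB-Gbx2 and 514 in PB. Of 9 listed mitophagy receptors and PINK1-Parkin parts, Bnip3 was the sole one past 2-fold, with a list median of 0.00. Fundc1, another hypoxia-linked receptor, had 286 in PB-Gbx2 and 198 in PB, Fkbp8 had 3022 in PB-Gbx2 and 3430 in PB, and Pink1 had 791 in PB-Gbx2 and 660 in PB.

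Glycogen enzymes were mixed: 8 of 13 listed genes were lower in PB-Gbx2 and 5 higher, with a median log2 ratio of -0.07. At least 2-fold lower were 2 (15.4%, against 5.26% of all genes), and none was 2-fold higher, against 5.14%. These were Pgm2 (804 in PB-Gbx2, 1856 in PB) and Stbd1 (11 in PB-Gbx2, 42 in PB). Pgm2 is also counted among the further HIF targets above, and Stbd1 lies at a low level, where ratios scatter widely. The phosphorylases Pygl (326 in PB-Gbx2, 509 in PB) and Pygm (124 in PB-Gbx2, 214 in PB) were on the lower side. Ugp2, which makes UDP-glucose, had 874 in PB-Gbx2 and 581 in PB, and the lysosomal glucosidase Gaa had 2896 in PB-Gbx2 and 1977 in PB.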
